A study of Mus musculus with 6 samples.

Results

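The C-type lectin receptors of myeloid cells described here are the products of 10 genes, Clec4a1, Clec4a2, Clec4a3, Clec4d, Clec4e, Clec4n, Clec5a, Clec7a, Clec10a and Clec12a. The genes were chosen by name, as lectin receptors known from monocytes, macrophages, neutrophils and dendritic cells, out of 36047 mouse genes to which the deposited transcripts were joined. All 10 passed the filter on low counts that left 20094 genes for testing. RNA came from the infarct area of hearts of C57BL6 mice (12 weeks of age in the labels, female in the study's methods), 48 h after ischemia/reperfusion (I/R), in which a coronary artery is tied off and reopened. In the treated group, 3 mice received LGK-974 daily by gavage, an inhibitor of Porcupine, the enzyme that lipid-modifies Wnt proteins for secretion. In the control group, 3 mice with the same injury received the DMSO vehicle. There was no uninjured heart among the samples, so levels before injury are not known here. The comparison asks whether these receptor genes differ in infarct tissue when Wnt secretion is blocked.

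C-type lectin receptors sit in the membrane of myeloid cells and bind sugars, lipids or products of damaged cells. Activating members signal through an ITAM, a tyrosine motif that is carried by the adaptors Fcer1g or Tyrobp or, as a shortened form, by the receptor itself, and recruits the kinase Syk, after which Card9, Bcl10 and Malt1 lead to NF-kB. Inhibitory members carry an ITIM, a tyrosine motif that recruits the phosphatases Ptpn6 and Ptpn11.

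Of the 10 genes, 9 lie on chromosome 6 of GRCm38 (positions from GENCODE) and Clec10a lies on chromosome 11 from 70156197 to 70170834. A cluster of 6 genes runs from Clec4a1, which starts at 122921848, through Clec4a3, Clec4a2, Clec4n and Clec4d to Clec4e, which ends at 123289870. Clec4d and Clec4e are neighbours on opposite strands with 6524 bases between them. Clec12a (129342691 to 129365303) and Clec7a (129461591 to 129472779) form a second group, and Clec5a lies apart from 40574894 to 40585821. No exon of another annotated gene overlapped an exon of the 10 genes. Clec7a is annotated as a polymorphic pseudogene, and the other 9 as protein-coding.

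The sequences shown first are those that separate a spliced transcript from one that keeps all or part of an intron, because the results for Clec4e and Clec12a depend on which of them held the counts. They were read from the GENCODE transcript sequences on GRCm38. For Clec4e, lower case marks the shared exon end and capitals what follows it: the next exon in the coding transcript Clec4e-201, and the first bases of the intron chr6:123286519-123288893 (minus strand, 2375 bases), which the retained-intron transcript Clec4e-206 keeps whole.
Clec4e-201, spliced: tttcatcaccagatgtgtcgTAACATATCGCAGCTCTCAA
Clec4e-206, intron kept: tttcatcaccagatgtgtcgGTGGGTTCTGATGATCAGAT

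For Clec12a, lower case marks the shared exon start and capitals what precedes it: the previous exon in the coding transcript Clec12a-201, and the last bases of the intron chr6:129354629-129359407 (plus strand, 4779 bases) in the retained-intron transcript Clec12a-202, which holds 2606 of these 4779 bases.
Clec12a-201, spliced: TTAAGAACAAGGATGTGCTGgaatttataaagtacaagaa
Clec12a-202, part of the intron kept: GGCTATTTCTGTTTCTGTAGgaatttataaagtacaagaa

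Stretches from the promoters of 4 members are shown for a sequence that they share. The 250 bases upstream of each start site (RefSeq, GRCm38.p6) were searched on both strands for GAGGAA, read as TTCCTC on the other strand, which forms the core of sites bound by the myeloid factor PU.1 (encoded by Spi1). A promoter entry was matched for 8 members, and 7 of them held the letters, against 25.9% of 27025 genes with an entry. Clec4a2 had no match in this window, and Clec4n and Clec10a were not matched to an entry. The match each stretch is centred on is in capitals (for Clec4d the window begins close to it), a second match in the stretches of Clec5a and Clec12a stays in lower case, and the sequences read in the direction of the gene.
Clec4d, chr6:123261857-123261899, plus strand: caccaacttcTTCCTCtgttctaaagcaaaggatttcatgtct
Clec4e, chr6:123289895-123289954, minus strand: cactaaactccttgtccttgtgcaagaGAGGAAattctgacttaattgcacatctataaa
Clec5a, chr6:40585854-40585913, minus strand: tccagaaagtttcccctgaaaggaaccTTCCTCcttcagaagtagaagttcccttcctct
Clec12a, chr6:129350156-129350215, plus strand: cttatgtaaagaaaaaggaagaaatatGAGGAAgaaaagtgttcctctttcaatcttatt

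Estimated counts per library ranged from 41579787 to 80398211, of which mitochondrial genes held 28.2 to 53.7%. DMSO library 1 stood apart from the other 5. Over 1501 olfactory, vomeronasal and taste receptor genes, which heart tissue is not known to use, its median was 32.1 counts per kb of transcript, against 3.01 to 11.6 in the other libraries. In 9143 genes with a retained-intron transcript, such transcripts held 15.3% of its counts, against 8.86 to 9.79% elsewhere. Values that rest on this library are therefore given with and without it.

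None of the 10 receptor genes, and 0 of the 20094 genes tested, passed an adjusted p of 0.05 in edgeR (quasi-likelihood test, Benjamini-Hochberg). At an unadjusted p under 0.05 there were 2699 genes (13.4%; 6.26% higher and 7.18% lower under LGK-974), and DESeq2 called 315 of 22238 genes (1.42%). Clec4d and Clec5a were the 2 members with an unadjusted edgeR p under 0.05, both at higher levels under LGK-974. In 3 members, Clec4d, Clec5a and Clec4a3, every LGK-974 library lay above every DMSO library, and in 0 members below, where 10.7% of all tested genes were separated upwards and 7.28% downwards. The fold change was positive in 7 members and negative in 3. Its median over the members was 0.36 on the log2 scale, beside -0.13 over all tested genes. Since this is whole tissue, more cells of a type and more RNA per cell cannot be told apart in any of these values.

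DMSO library 1 was the highest of the 6 libraries in 4 members, Clec4e, Clec12a, Clec4a2 and Clec10a. Without it, 6 members had an unadjusted edgeR p under 0.05 at higher levels under LGK-974 (Clec4d, Clec4e, Clec4n, Clec5a, Clec12a and Clec4a3), where 6.67% of all tested genes were higher and 3.35% lower. The same 6 did not overlap between the groups, where 15.1% of all tested genes were separated upwards and 12.6% downwards in these 5 libraries. The common dispersion of the fit was 0.238 with it and 0.116 without it.

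**Figure D1:**
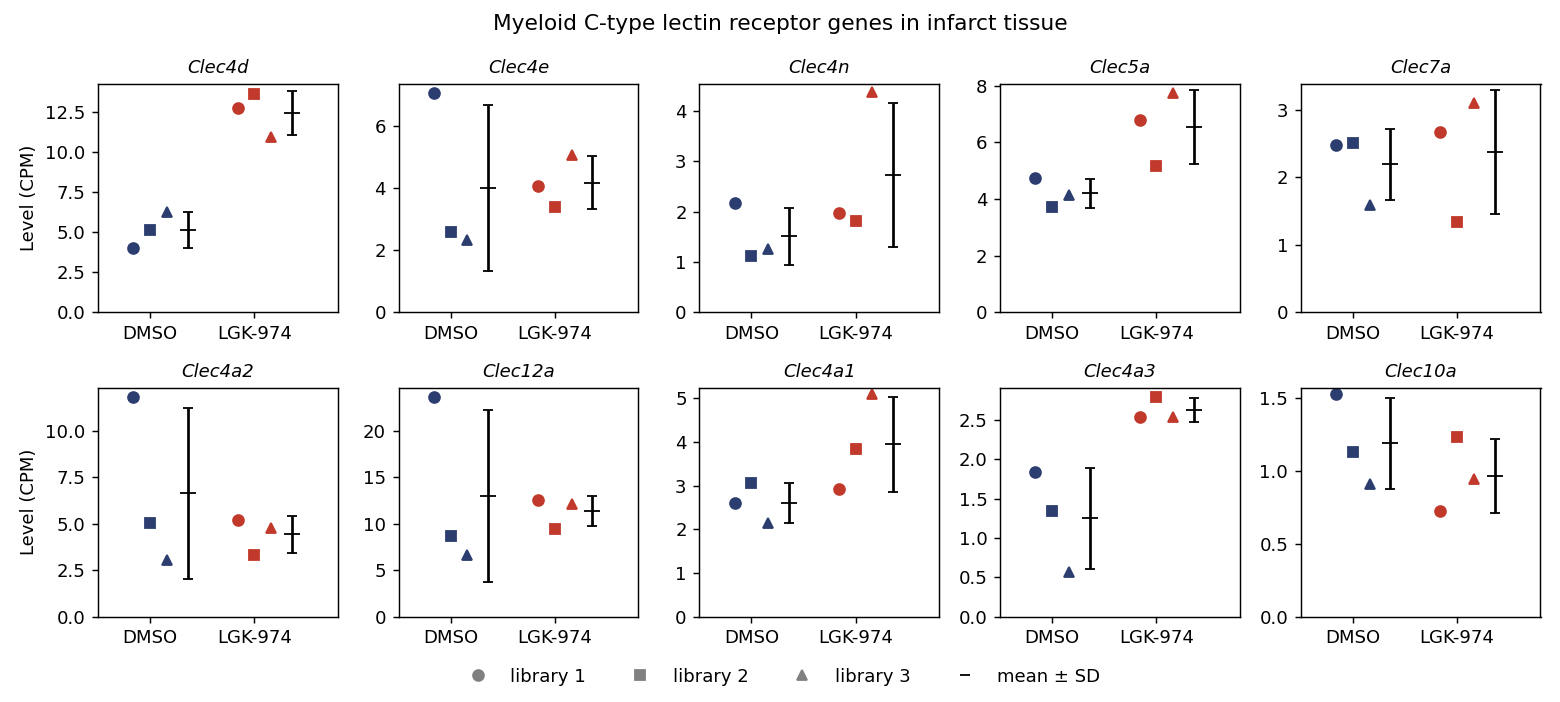
Level of each of the 10 genes in CPM (counts scaled to library size, linear axis from 0), with the symbol giving the library number, blue for DMSO and red for LGK-974, and the horizontal and vertical lines beside the points giving mean and SD (n = 3). The groups are apart in Clec4d, Clec5a and Clec4a3, and DMSO library 1 (circle) is the highest point in Clec4e, Clec12a, Clec4a2 and Clec10a.

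Among the activating receptors, Clec4d showed the clearest separation. Clec4d encodes MCL, which pairs with the Clec4e product and with Fcer1g. It was measured at 12.7, 13.6 and 10.9 CPM (counts scaled to library size by TMM) in LGK-974 libraries 1, 2 and 3, and at 4.02, 5.13 and 6.26 CPM in DMSO libraries 1, 2 and 3. The lowest treated library was thus above the highest control library. Mean levels of 12.4 ± 1.36 and 5.14 ± 1.12 CPM (SD, n = 3 each) gave a log2 change of 1.27 with a standard error of 0.222 (edgeR, unadjusted p = 4.9e-04, adjusted p = 0.368). DESeq2, which called 0.985% of its genes higher and 0.432% lower under LGK-974, called Clec4d with an adjusted p of 0.0058. Without DMSO library 1 the log2 fold change was 1.14 (edgeR, adjusted p = 0.267). A retained-intron transcript held no more than 5.66% of its counts in any library.

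Clec4e encodes Mincle, a receptor for mycobacterial glycolipid and for the nuclear protein Sap130 released by dead cells. Its LGK-974 libraries held 4.09, 3.40 and 5.07 CPM and its DMSO libraries 7.09, 2.59 and 2.33 CPM. DMSO library 1 was above all treated libraries and the other 2 control libraries were below all of them. The log2 fold change was 0.07 with a standard error of 0.458 (edgeR, adjusted p = 0.954), and 0.79 with a standard error of 0.272 without DMSO library 1 (edgeR, adjusted p = 0.401).

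Clec4n encodes Dectin-2, a receptor for mannans that signals through Fcer1g. It held 1.98, 1.81 and 4.37 CPM in the LGK-974 libraries and 2.16, 1.12 and 1.25 CPM in the DMSO libraries. The groups overlapped through DMSO library 1, and LGK-974 library 3 was well above the other 5. Its log2 change was 0.85 with a standard error of 0.497 (edgeR, adjusted p = 0.425), and 0.41 without LGK-974 library 3. Without DMSO library 1 it was 1.21 with a standard error of 0.455 (edgeR, adjusted p = 0.431).

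Clec5a encodes MDL-1, which signals through Tyrobp and Hcst. Its levels were 6.78, 5.15 and 7.74 CPM under LGK-974 and 4.73, 3.72 and 4.15 CPM under DMSO, with no overlap and a gap smaller than that of Clec4d. Mean levels of 6.56 ± 1.31 and 4.20 ± 0.503 CPM (SD, n = 3 each) gave a log2 change of 0.64 with a standard error of 0.244 (edgeR, unadjusted p = 0.0309, adjusted p = 0.368). Over the 6 libraries, 66.4% of its counts were assigned to Clec5a-201, a spliced transcript of 1745 bases annotated without a coding sequence. Clec5a-201 held 4.18, 4.22 and 6.16 CPM in the LGK-974 libraries and 1.30, 2.56 and 2.47 CPM in the DMSO libraries. The coding transcripts held 2.60, 0.932 and 1.58 CPM against 3.42, 1.16 and 1.68 CPM. The separation of the groups at Clec5a was therefore present in the counts assigned to the non-coding transcript, while those assigned to the coding transcripts overlapped. This division of reads between transcripts is an estimate, and the share of the coding transcript Clec5a-202 ranged from 7.31 to 67.1% between libraries.

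Clec7a encodes Dectin-1, the receptor for beta-glucan of fungal cell walls, which carries its own ITAM-like motif. It was at 2.67, 1.34 and 3.10 CPM under LGK-974 and at 2.48, 2.51 and 1.59 CPM under DMSO. The highest and the lowest library both belonged to the LGK-974 group, with a log2 change of 0.11 and a standard error of 0.429 (edgeR, adjusted p = 0.910). The counts were divided between Clec7a-201 and Clec7a-204, which are 2277 and 2272 bases long, in a different way in each library, and the sum is used here for that reason.

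Of the inhibitory receptors, Clec12a encodes MICL, which binds uric acid crystals, and had the most counts of the 10 genes in LGK-974 library 3 and in all 3 DMSO libraries. It held 12.5, 9.47 and 12.1 CPM under LGK-974 and 23.7, 8.72 and 6.66 CPM under DMSO. As for Clec4e, DMSO library 1 lay above all treated libraries and the other 2 control libraries below them. Its log2 change was -0.19 with a standard error of 0.444 (edgeR, adjusted p = 0.842), and turned to 0.59 with a standard error of 0.203 without DMSO library 1 (edgeR, adjusted p = 0.400).

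Clec4a2 encodes DCIR, the ITIM-bearing receptor after which the dendritic cell immunoreceptor group is named. Its levels were 5.18, 3.31 and 4.79 CPM under LGK-974 and 11.8, 5.06 and 3.04 CPM under DMSO, so that the controls spanned the treated range on both sides. Its log2 change was -0.58 with a standard error of 0.478 (edgeR, adjusted p = 0.543), and 0.16 without DMSO library 1. In DMSO library 1 most of the counts were on Clec4a2-203, a transcript of 584 bases of which 82 are coding. Clec4a2-203 held 8.17 CPM there and 1.03 to 2.38 CPM in the other 5 libraries. The other transcripts of Clec4a2 together held 3.35, 2.28 and 2.94 CPM against 3.67, 2.68 and 1.40 CPM, which overlapped.

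Clec4a1 and Clec4a3 encode relatives of DCIR that lack the ITIM. Clec4a1 was at 2.92, 3.83 and 5.09 CPM under LGK-974 and at 2.59, 3.06 and 2.14 CPM under DMSO, overlapping by LGK-974 library 1 alone (log2 fold change 0.60, standard error 0.325; edgeR, adjusted p = 0.401). Clec4a3 was at 2.54, 2.80 and 2.54 CPM under LGK-974 and at 1.83, 1.34 and 0.565 CPM under DMSO. Its treated libraries were close together and all above the controls, which varied more. The log2 fold change of Clec4a3 was 1.07 with a standard error of 0.488 (edgeR, unadjusted p = 0.0603, adjusted p = 0.369), and 1.48 with a standard error of 0.410 without DMSO library 1 (edgeR, adjusted p = 0.337). It rested on 23 to 216 counts per library.

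Clec10a encodes MGL1, which binds galactose and N-acetylgalactosamine and is known from alternatively activated macrophages and dendritic cells. It was the lowest of the 10 genes in CPM in all 3 LGK-974 libraries and DMSO library 1, with 0.722, 1.23 and 0.943 CPM under LGK-974 and 1.53, 1.13 and 0.909 CPM under DMSO. The groups overlapped, and the log2 fold change was -0.31 with a standard error of 0.526 (edgeR, adjusted p = 0.778), and -0.07 without DMSO library 1. It rested on 37 to 66 counts per library. In DMSO library 1 it had 26.1 counts per kb, below the median of 32.1 of the olfactory, vomeronasal and taste receptor genes, while in the other 5 libraries it had 15.9 to 28.3 counts per kb, above their medians of 3.01 to 11.6. Of the stretches of 31 bases in its transcripts, 14.9% also occur in transcripts of other genes, 13.7% in those of its close copy Mgl2, so its value is uncertain. The corresponding share was 10.5% for Clec4a2, at most 2.19% for Clec4a3, Clec4n, Clec12a and Clec7a, and 0 for Clec4d, Clec4e, Clec5a and Clec4a1. Other members also came near the median of 32.1 counts per kb in DMSO library 1. There Clec7a had 43.4, Clec5a 50.2, Clec4a3 56.2, Clec4e 58.7 and Clec4n 61.3 counts per kb.

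Per transcript length, levels can be set between genes. In TPM, the authors' values scaled to transcript length and library sum and added up per gene, Clec4d had 13.4 ± 4.17 under LGK-974 and 4.36 ± 1.68 under DMSO (SD, n = 3 each). Clec12a had 8.03 ± 4.39 against 5.13 ± 1.85 TPM, and Clec4a2 6.97 ± 4.02 against 9.43 ± 5.26 TPM. These 3 genes took the first 3 places in every library. Clec4d had rank 1 in all 3 LGK-974 libraries, and ranks 3, 3 and 1 in the DMSO libraries. The ranges of neighbours in this order overlapped within each group. The order of the next genes is not resolved by their spread: Clec5a (5.38 ± 3.32 against 2.11 ± 0.645 TPM), Clec4n (5.33 ± 3.97 against 1.57 ± 0.772), Clec4a1 (3.35 ± 2.26 against 1.60 ± 0.410) and Clec4a3 (2.95 ± 1.50 against 1.10 ± 0.491) all overlapped one another in both groups. Clec4e had 2.29 ± 1.73 against 0.884 ± 0.394 TPM, Clec7a 1.53 ± 1.14 against 1.29 ± 0.597 and Clec10a 1.09 ± 0.824 against 1.76 ± 0.763, again with overlapping ranges.

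Clec4e and Clec12a differed from the other members in the transcripts that held their counts, which brings back the sequences printed above. Retained-intron transcripts of Clec4e held 68.0, 67.8 and 43.4% of its counts in the LGK-974 libraries and 89.8, 100 and 68.1% in the DMSO libraries. In DMSO library 2, 0 of 125 counts fell on the other transcripts of Clec4e, which allows a share of up to 2.4% (3 counts, counting error only). Nearly all 125 were placed on the retained-intron transcript Clec4e-205, and 0 on Clec4e-206. Clec4e-205 keeps the same intron whole and held at most 0.129 counts in any other library. The limit leaves out this division of reads between transcripts, whose part in the 0 was not tested. For Clec12a the share was 41.3, 57.9 and 26.8% in the LGK-974 libraries and 87.5, 63.4 and 54.2% in the DMSO libraries. In both genes the highest share was in a DMSO library and the lowest in LGK-974 library 3. For Clec4e the treated libraries all lay below the controls by a narrow margin, and for Clec12a the groups overlapped. Clec4d had 1.26% at the least and 5.66% at the most on such a transcript, and Clec4n, Clec5a, Clec4a1, Clec4a2 and Clec4a3 have none annotated.

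**Figure D2:**
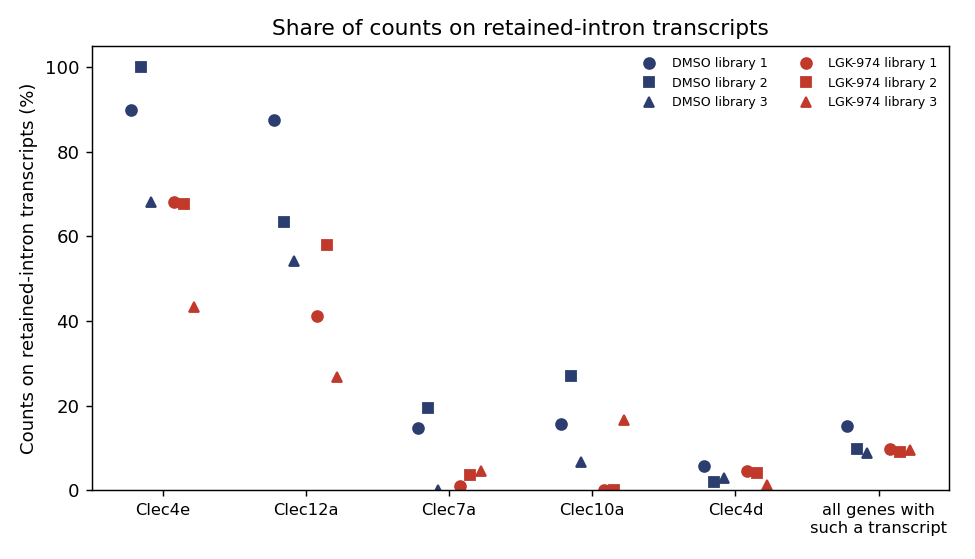
Share of each gene's estimated counts on transcripts annotated as retained intron (percent), per library, for the 5 members that have one and, at the right, pooled over 9143 genes with such a transcript; blue marks DMSO and red LGK-974, the symbol gives the library number. Clec4e (43.4 to 100%) and Clec12a (26.8 to 87.5%) lie above the pooled share of 8.86 to 15.3% in every library.

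Without retained-intron transcripts, which was tried after the data were seen, Clec12a stood at 7.53, 4.08 and 9.05 CPM under LGK-974 and at 3.28, 3.30 and 3.11 CPM under DMSO. The controls were then nearly equal, DMSO library 1 included, and all 3 treated libraries exceeded them. The log2 fold change was 1.09 with a standard error of 0.321 (edgeR, unadjusted p = 0.0102, adjusted p = 0.354). Clec4e stood at 1.34, 1.12 and 2.93 CPM against 0.807, 0 and 0.759 CPM, also without overlap, with a log2 fold change of 1.79 and a standard error of 1.21 (edgeR, unadjusted p = 0.179, adjusted p = 0.467). Its coding transcript Clec4e-201 had 107, 58.7 and 173 counts in the LGK-974 libraries and 28.9, 0 and 26.1 counts in the DMSO libraries. Clec4d kept its value (log2 fold change 1.24, standard error 0.206; edgeR, adjusted p = 0.317). In this setting 8 members had a positive fold change and 3 an unadjusted p under 0.05 (Clec4d, Clec5a and Clec12a), where 6.54% of all tested genes were higher and 7.37% lower at that threshold. In 5 members, the former 3 and Clec4e and Clec12a, the groups did not overlap, where 11% of all tested genes were separated upwards and 7.61% downwards. For Clec5a the margin was narrow, with 5.26 CPM in LGK-974 library 2 and 5.25 CPM in DMSO library 1. Kallisto divides reads between transcripts of a gene by a model, so the split between spliced and retained-intron transcripts is an estimate, more uncertain than the sum per gene.

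**Figure D3:**
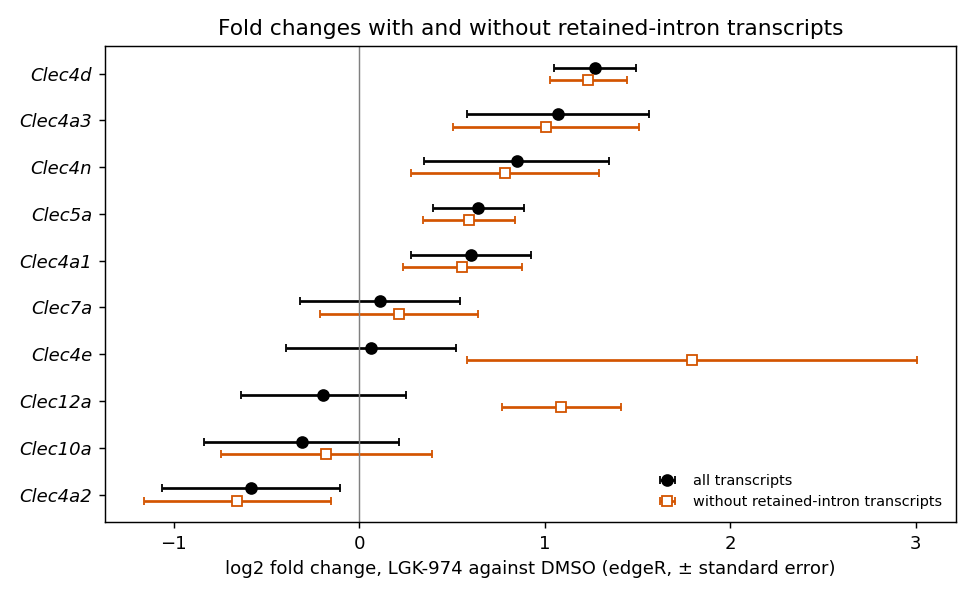
Difference in log2 level between the LGK-974 and the DMSO libraries (horizontal axis, fold change; edgeR, bars give 1 standard error) of the 10 genes, with all transcripts (filled circles) and without retained-intron transcripts (open squares). Clec12a moves from -0.19 to 1.09 and Clec4e from 0.07 to 1.79, while Clec4d stays at 1.27 and 1.24.

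Of 27 genes of the adaptors and signalling proteins behind these receptors, all 27 were tested, 23 had a positive fold change and 12 had an unadjusted p under 0.05 at higher levels, against 6.26% of all tested genes; 0 were lower at that threshold and 0 passed after adjustment. The median log2 fold change of the 27 was 0.59, beside -0.13 over all genes. Without DMSO library 1, 12 were higher and 1 (Ptpn11) was lower at an unadjusted edgeR p under 0.05. Over all tested genes, 6.67% were higher and 3.35% lower in that setting. The adaptor Fcer1g, shared by the Clec4d, Clec4e and Clec4n products, stood at 24.9, 20.7 and 29.2 CPM under LGK-974 and at 11.01, 17.6 and 12.4 CPM under DMSO (log2 fold change 0.87, standard error 0.223; edgeR, adjusted p = 0.368). Tyrobp, the adaptor of the Clec5a product, stood at 7.92, 9.89 and 7.94 CPM against 2.84, 5.52 and 4.76 CPM (log2 fold change 0.97, standard error 0.284; edgeR, adjusted p = 0.368). Neither adaptor overlapped between the groups. Hcst, the other adaptor of the Clec5a product, was at 0.123 to 0.393 CPM in all 6 libraries.

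Plcg2, the phospholipase downstream of Syk, had a log2 change of 0.77 (standard error 0.164), the exchange factor Vav3 of 0.59 (0.151) and the phosphatase Ptpn6, which inhibitory receptors recruit, of 1.10 (0.288). Syk itself was at 41.4, 41.2 and 42.5 CPM against 26.0, 37.8 and 33.6 CPM, with a smaller log2 change of 0.36 (standard error 0.171). Card9 (0.39, standard error 0.318), Bcl10 (0.12, 0.184) and Malt1 (-0.09, 0.153) overlapped between the groups. Ptpn11, the other phosphatase of the inhibitory receptors, was lower in every LGK-974 library, at 80.5, 89.5 and 78.2 CPM against 92.5, 108 and 111 CPM (log2 fold change -0.33, standard error 0.158). Without DMSO library 1 its log2 fold change was -0.39 (standard error 0.161).

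**Figure D4:**
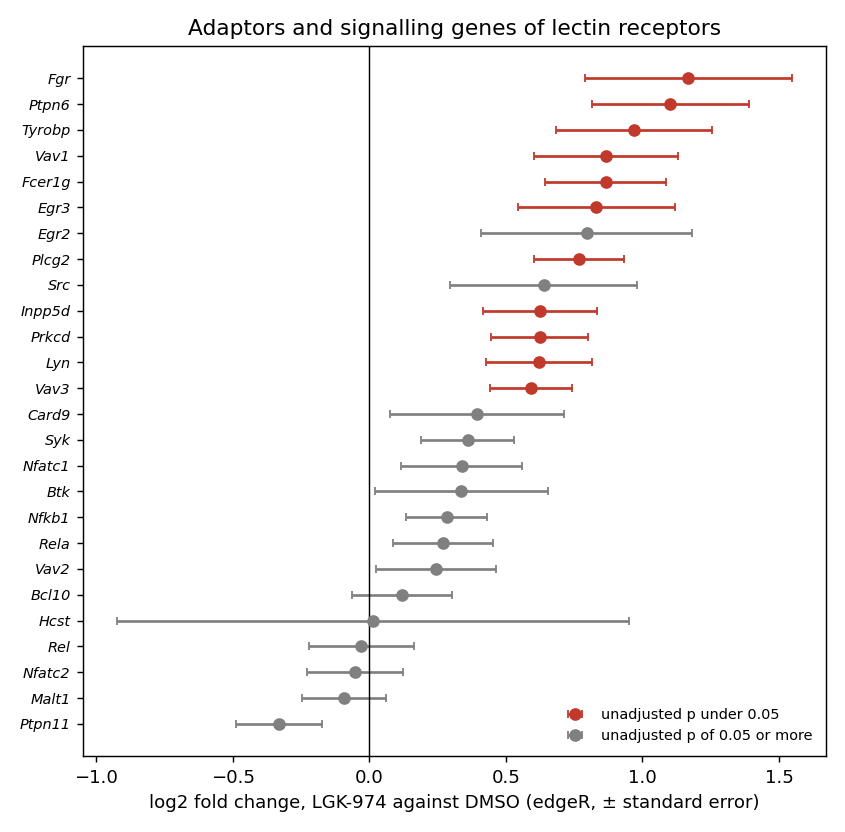
Difference in log2 level between the LGK-974 and the DMSO libraries (horizontal axis, fold change; edgeR, bars give 1 standard error) of 26 adaptor and signalling genes, red where the unadjusted p was under 0.05. The 11 red genes all lie to the right of 0, from Vav3 at 0.59 to Fgr at 1.17, and Card9, Bcl10 and Malt1 lie at 0.39 or below.

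Genes that macrophages are known to induce through Syk and Card9 were 16, of which 13 passed the filter. Of these, 11 had a positive fold change, 0 an unadjusted edgeR p under 0.05, and the median was 0.30. Without DMSO library 1, 4 of the 13 were higher and 0 lower at that threshold, with a median of 0.71. Over all tested genes, 6.67% were higher and 3.35% lower in that setting. The smallest unadjusted p was that of Tnf, at 2.49, 1.70 and 2.10 CPM under LGK-974 and 1.21, 1.12 and 1.06 CPM under DMSO (log2 fold change 0.89, standard error 0.399). The groups did not overlap in Tnf or in the chemokine gene Ccl3 (0.76, standard error 0.341), whereas in Il1b, at 1.60, 0.914 and 3.88 CPM against 1.38, 0.517 and 0.639 CPM, they did. Of the ligands known from damaged tissue, the intermediate filament Vim, which Dectin-1 has been described to bind, had a log2 change of 0.80 (standard error 0.233) and the galectin Lgals9 of 0.78 (0.242), both with an unadjusted edgeR p under 0.05. Sap130, the ligand of Mincle, was at 42.0 to 44.9 CPM against 37.4 to 46.5 CPM (log2 fold change 0.11, standard error 0.151).

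Of 10 myeloid transcription factors, 4 had an unadjusted edgeR p under 0.05, all at higher levels. Spi1, which encodes PU.1, was at 15.9, 15.6 and 18.9 CPM under LGK-974 and at 6.48, 10.5 and 7.81 CPM under DMSO (log2 fold change 1.03, standard error 0.215; adjusted p = 0.368). Irf5 had a log2 change of 1.07 (0.332) and Irf8 of 0.57 (0.229). These are RNA levels in the whole tissue, and no binding of a factor to the promoters shown was measured.

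A chosen list of 41 other C-type lectin genes, not the whole family, did not share a direction. Of 34 that passed the filter, 15 had a positive and 19 a negative fold change, with a median of -0.12, and 5 were higher and 3 lower at an unadjusted edgeR p under 0.05. Over all tested genes, 6.26% were higher and 7.18% lower at that threshold. The matrix-associated growth factor gene Clec11a was at 3.77, 5.13 and 5.34 CPM under LGK-974 and 1.33, 1.63 and 1.92 CPM under DMSO (log2 fold change 1.54, standard error 0.311). The macrophage mannose receptor Mrc1, also among the macrophage markers, had a log2 change of 0.82 (0.201) and the stromal Cd248 of 0.95 (0.278). The 3 lower genes were Clec9a (-0.55, standard error 0.194), known from cross-presenting dendritic cells, Cd69 (-1.88, 0.788) and Cd209c (-1.70, 0.731). Cd69 was at 9.01 CPM in DMSO library 1 and at 0.831 to 1.79 CPM in the other 5 libraries, and its log2 change was -0.37 (0.448) without that library. Cd209c was at 54.6 CPM there and at 5.93 to 10.6 CPM elsewhere, and its log2 change was -0.15 (0.245) without that library. In total, without DMSO library 1, 6 of these genes were higher and 1 was lower at that threshold, against 6.67% and 3.35% of all tested genes.

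Markers of the cells that carry the receptors differed between cell types. Over all tested genes, 6.26% were higher and 7.18% lower at an unadjusted edgeR p under 0.05, and 6.67% and 3.35% without DMSO library 1. Of 18 monocyte and macrophage markers, 17 had a positive fold change and 12 an unadjusted edgeR p under 0.05 at higher levels, and their summed level was 797 to 932 CPM under LGK-974 and 423 to 581 CPM under DMSO. Adgre1, which encodes F4/80, was at 27.3, 27.9 and 24.7 CPM against 11.8, 17.7 and 13.7 CPM. None of the 18 markers was at 0 in any library. Of 13 neutrophil markers 7 were tested, 0 were higher and 1 (Cxcr2) was lower at that threshold. Without DMSO library 1, 1 was higher and 0 were lower. Their summed level was 35.6 to 52.6 CPM under LGK-974 and 45.6 to 90.6 CPM under DMSO, and Camp, Elane, Ltf, Ly6g, Ngp and Retnlg were at 0 in at least 1 library. Of 12 dendritic cell markers, Itgax was higher and Clec9a and Siglech were lower at that threshold, with summed levels of 31.01 to 36.2 and 28.3 to 44.7 CPM. Without DMSO library 1, in which Siglech was at 4.49 CPM against 0.526 to 1.92 CPM elsewhere, 1 was higher and 1 lower, and the median of the list turned from -0.32 to 0.14. The part of these cell types in the values of the receptor genes was not tested.

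Set against a marker within the same library, Clec4d was less distinct. Its ratio to Adgre1 was 0.466, 0.488 and 0.442 in the LGK-974 libraries and 0.340, 0.289 and 0.458 in the DMSO libraries, so the groups overlapped through DMSO library 3. They overlapped also in its ratios to Csf1r (0.188 to 0.344 against 0.164 to 0.228) and to the integrin gene Itgam (0.145 to 0.343 against 0.149 to 0.239). Of the neutrophil markers, S100a8 and Csf3r were chosen to be set against Clec4d, and both ratios stayed apart. They were 1.60, 3.35 and 2.41 against 0.724, 1.14 and 1.11 for S100a8, and 1.06, 1.16 and 0.580 against 0.238, 0.334 and 0.364 for Csf3r. This does not hold for every neutrophil marker. Against Mmp8, DMSO library 3 (Clec4d 6.26 CPM, Mmp8 0.811 CPM) falls within the treated range. Against Cxcr2 and Mpo the groups would stay apart, and the remaining neutrophil markers were not set against Clec4d. Within the receptor cluster, the ratio of Clec4d to the inhibitory Clec4a2 was 2.45, 4.10 and 2.28 under LGK-974 and 0.340, 1.01 and 2.06 under DMSO, without overlap. This separation depends on Clec4a2-203, which held 31.2 to 69.0% of the Clec4a2 counts. Against the other Clec4a2 transcripts, DMSO library 3 (Clec4d 6.26 CPM, those transcripts 1.40 CPM) falls within the treated range. The ratio of Clec4d to the other inhibitory member, Clec12a, overlapped (1.02, 1.43 and 0.900 against 0.170, 0.588 and 0.941). The ratio of Clec5a to Itgam overlapped between the groups (0.103 to 0.134 against 0.115 to 0.175).

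The genes whose profile over the 6 libraries was most like the median profile of the 10 members, by the root mean square difference of centred log2 CPM, were Hhex (0.0657), Cxcl1 (0.0715), Kif2c (0.0728), Cklf (0.0741) and Fndc10 (0.0748). The chemokine gene Cxcl1, for instance, was at 3.71, 3.73 and 5.42 CPM under LGK-974 and at 4.12, 2.90 and 2.43 CPM under DMSO. Like the median profile, these 5 genes overlapped between the groups through DMSO library 1. With 6 libraries, such likeness describes these samples only.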

How the data were processed

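RNA of infarct tissue was sequenced for 3 LGK-974 and 3 DMSO mice, grouped by the sample labels. According to the labels and the study's methods, ribosomal RNA was depleted, libraries came from a capture kit, and transcripts of GRCm38 were quantified with Kallisto; the versions of program and annotation are not given in the sources used here. The authors deposited estimated counts and TPM values for 118489 transcripts per library. Here 98.6% of the transcripts were joined to 36047 genes with GENCODE (GRCm38), and the counts were summed per gene and rounded. Genes reaching 10 counts in at least 3 libraries were tested by quasi-likelihood in edgeR (version 4.0.16 under R 4.3.3; TMM factors 0.816 to 1.40, treatment as only factor), with Benjamini-Hochberg adjustment over 20094 genes and a threshold of 0.05. DESeq2 1.42.0 (independent filtering at 0.05) and limma-voom (limma 3.58.1) were alternatives. CPM are TMM-scaled counts. The tests were checked on simulated data.

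The 10 genes and all lists were chosen with earlier results of these data known, and their levels are given without p-values over lists. All 10 members are named, with up to 3 genes of each other list by smallest p (2 of these genes are not reported here), and the 5 genes most like the members' median profile, with 0.5 added to CPM before the log2; Fcer1g, Tyrobp, Hcst, Syk, Card9, Bcl10, Malt1, Ptpn6, Ptpn11, Fgr, Irf8, Cd69 and Cd209c were added after their values were seen. Other marker lists gave the following counts at an unadjusted edgeR p under 0.05: of 12 T cell markers 0 were higher and 0 lower, of 9 tested B cell markers 0 and 0, of 15 cardiomyocyte markers 2 and 0, of 14 fibroblast markers 5 and 0, and of 12 endothelial markers 0 and 0. Over all tested genes, 6.26% were higher and 7.18% lower. Figures were drawn with Python 3.11.15 and matplotlib 3.10.9. Precision rests on 3 mice per group, and for Clec10a and Clec4a3 also on few counts.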

Additional observations from a re-analysis of the deposited data

How the results depend on the processing

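The number of genes past an adjusted p of 0.05 was 0 with edgeR and became 315 with DESeq2, 1206 with no filter on low counts, 391 with DESeq2 without retained-intron transcripts, 2 without retained-intron transcripts and DMSO library 1, and 0 to 2 with 1 library left out (2 without DMSO library 1). Genes with an unadjusted p under 0.05 numbered 2699 and became 4477 with DESeq2, 4790 with no filter and 4603 with DESeq2 without retained-intron transcripts, and 844 (without LGK-974 library 3) to 4641 (without DMSO library 3) with 1 library left out. They numbered 2415 with at least 1 CPM in 3 libraries and 2011 without retained-intron transcripts and DMSO library 1. Without DMSO library 1 there were 2013, without LGK-974 library 1 1886 and without DMSO library 2 2354. Among the 10 receptor genes, Clec4d was the 1 member called, and this by DESeq2 (log2 fold change 1.30), with no filter (1.40) and by DESeq2 without retained-intron transcripts (1.26). With 1 library left out, 0 to 0 members were called, and over 18 alternatives the log2 fold change of Clec4d was 1.12 to 1.55 and its adjusted p ranged from 0.000805 to 0.78. Members with an unadjusted p under 0.05 numbered 2, and 4 with no filter, 1 with at least 1 CPM in 3 libraries, 5 without retained-intron transcripts and DMSO library 1, and 1 to 6 with 1 library left out (6 without DMSO library 1, 1 without LGK-974 library 1, LGK-974 library 3 or DMSO library 2).

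The direction turned in 5 members. Clec12a (-0.19) became 0.0549 with limma-voom, 0.0662 with no filter, 0.0176 with the replicate block, 0.24 with counts scaled from TPM, 1.09 without retained-intron transcripts, 1.13 with DESeq2 without them, 1.12 without them and DMSO library 1, and -0.37 to 0.59 with 1 library left out. Clec4e (0.07) became -0.0264 with at least 1 CPM in 3 libraries and -0.0683 to 0.79 with 1 library left out, Clec7a (0.11) -0.20 with counts scaled from TPM and -0.0384 to 0.47, and Clec4a2 (-0.58) 0.15 without retained-intron transcripts and DMSO library 1 and -0.79 to 0.16. Clec10a (-0.31) became 0.76 with counts less background and 0.12 without retained-intron transcripts and DMSO library 1. The cause was not tested. Clec4d, Clec5a, Clec4a3, Clec4n and Clec4a1 kept a positive sign in all 18 alternatives. The settings without retained-intron transcripts were added after the data were seen. The median over all genes was -0.75 with DESeq2 and -0.55 with no filter, against -0.13.

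Whether replicate numbers pair the mice is not stated in the labels. Deviations of same-numbered libraries correlated at 0.487, -0.061 and 0.315. Differently numbered libraries were not compared, so these values cannot decide it. With the replicate block, 0 genes passed the adjusted threshold, 3312 had an unadjusted p under 0.05, and 3 members did.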
